A study of Mus musculus with 2 samples.

Results

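The plasminogen activation system was followed in mouse kidney through 7 genes, *Plau*, *Plat*, *Plg*, *Plaur*, *Serpine2*, *Serpinf2* and *Serpinb2*, out of 31821 gene names on the arrays. The group was chosen by the measured ratio of *Plau* between the genotypes and filled with genes of its pathway by name, so the values below are a description and support no test. Each of the 7 genes was measured by 1 probe, and 6 of them had a signal above background that allowed a ratio. Total RNA came from whole kidneys of mice aged 2 months, of the genotype Cnnm2fl/fl;Six2-Cre, called the knockout, or Cnnm2+/+;Six2-Cre, called the control. Both genotypes carry Six2-Cre, which drives Cre recombinase in the nephron progenitors of the embryonic kidney, so cells of other origin in the kidney, such as vessels and leukocytes, are not its target. How many mice gave RNA, and of which sex these were, is not given in the sources used here, where the methods say in general that animals of both sexes were used and matched. The RNA was hybridised to 2 arrays of 2 colours, with the knockout in Cy5 and the control in Cy3 on array 1, and the dyes exchanged on array 2.

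Plasmin is the protease that dissolves fibrin. It circulates as an inactive zymogen, plasminogen, which is made mainly in the liver and is cut into its active form by urokinase or by tissue plasminogen activator. Urokinase is produced by kidney tubule cells and reaches the urine, where it is abundant. Its cell surface receptor holds it near plasminogen, and serpins, which are inhibitors that trap a protease by a bait loop, limit the activators and plasmin itself.

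Since each gene rests on a single probe of 60 bases, the probes behind the results are shown for 3 genes, read 5′ to 3′ from the array design. The *Plau* probe carries the only large ratio, and the first 30 of its bases are given. The *Plat* probe is given up to a TGA stop codon, in capitals, that follows 15 codons counted from its first base, which leaves out 12 bases. The *Serpine2* probe is given whole, because its target positions span 2618 bases of the genome and therefore cross at least 1 intron.
*Plau*: gtgtatttctgtatctaactgcaagtctag
*Plat*: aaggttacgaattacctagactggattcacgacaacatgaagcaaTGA
*Serpine2*: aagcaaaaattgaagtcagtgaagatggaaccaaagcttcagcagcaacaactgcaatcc

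In the mm9 build used by the files, the full *Plau* probe lies at chr14:21662242-21662301 on the plus strand, the *Plat* probe at chr8:23892531-23892590 on the plus strand and the *Serpine2* probe at chr1:79793476-79796093 on the minus strand. The *Plaur* probe is at chr7:25260569-25260628, the *Plg* probe at chr17:12612049-12612108 and the *Serpinb2* probe at chr1:109422046-109422105, all on the plus strand, and the *Serpinf2* probe is at chr11:75245252-75245311 on the minus strand. The exon or UTR that each probe falls in was not determined, since no mm9 annotation was used here. The transcript accession of all 7 probes matched the same symbol in RefSeq. The share of G and C bases was 43.3% in the probes of *Plau* and *Plaur*, 41.7% in those of *Plat* and *Serpine2*, 45% for *Plg*, and 35% for *Serpinf2* and *Serpinb2*, beside a median of 41.7% over all 39429 probes of this length.

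Signals are processed intensities in arbitrary units, which the scanner software corrected for background and dye, and a ratio is the knockout over the control on the log2 scale. Both arrays together stood for 1 replicate per genotype, so the comparison rests on a rule of size, and the only test run was the methods' paired t-test over the arrays, run as an alternative, which called 0 of the 6 genes. Whether both arrays carried the same RNA is not stated. If they did, the SD given over the 2 arrays covers labelling and hybridisation only, and if not, it also holds differences between animals. A gene was compared where the software called its probe well above background for at least 1 genotype, the same one on each array, which held for 19708 genes, and was counted as changed where the mean of its ratios was at least 1 in size with the same sign on both arrays. Over these genes the ratios of the arrays, turned to the same direction, correlated at r = -0.51 (Spearman's rho = -0.56, across genes, which are not independent replicates), so that ratios tended to change sign with the dyes. The targeted gene, *Cnnm2*, had signals of 626 in the knockout and 4620 in the control on array 1, and of 591 and 3247 on array 2. It was lower in the knockout on both arrays, with ratios of -2.88 and -2.46. Which exons are flanked by loxP sites is not given in the sources used here, so whether its probe lies within the deleted part is not known.

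*Plau*, which encodes urokinase, was lower in the knockout on both arrays. Its signal on array 1 was 359 for the knockout and 2146 for the control, and on array 2 it was 77.5 and 169. The knockout and control values thus overlapped across the arrays, since the knockout signal of array 1 was above the control signal of array 2. Array 1 gave a ratio of -2.58 and array 2 one of -1.13. Their mean was -1.85 ± 1.03 (SD over 2 arrays), or 3.61-fold lower in the knockout. Of the 19708 genes, 13 had a lower mean ratio than *Plau*. Only 0.284% of these genes were counted as changed in the lower direction (56 genes), and 0.599% in either direction.

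**Figure D1:**
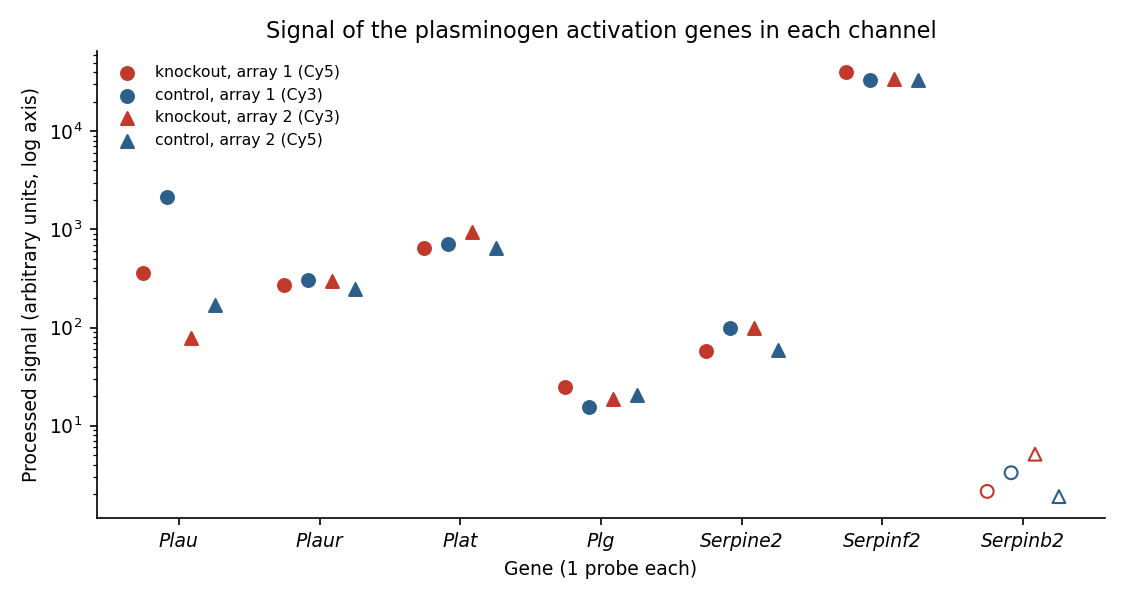
Processed signal (arbitrary units, log axis) of each of the 7 genes in the 4 channels, with the knockout in red, the control in blue, circles for array 1 and triangles for array 2. Open symbols were not well above background, and signals of different genes are not comparable because each comes from a different probe. *Plau* fell from 2146 to 169 in the control between the arrays, whereas the other 5 genes above background differed by less than 2-fold between the arrays in either genotype.

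The *Plau* signal dropped on array 2 in both genotypes. It was 12.7-fold lower than on array 1 in the control and 4.63-fold lower in the knockout, or -3.67 and -2.21 on the log2 scale. Over the 18921 genes well above background in both genotypes, the same change between arrays had a median of -0.20 in the control and -0.26 in the knockout. Besides *Plau*, only the transcript listed as ENSMUST00000071374 was at least 4-fold lower on array 2 in both genotypes. For the other 5 genes with a ratio the change between arrays ranged from -0.76 to 0.42 in the control and from -0.41 to 0.78 in the knockout.

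The *Plau* spot of array 2 lies in a small area of low background. Its Cy3 local background was 15, against 33 on array 1 and a median of 35 over all 44397 spots of array 2. On array 2, 14 spots had a Cy3 local background below 66.7% of that median, all of them in rows 421 to 428 and columns 42 to 44, and the *Plau* spot is at row 425, column 44. Array 1 had 0 such spots in Cy3. None of the spots of the other 6 genes had a local background this low in either dye on either array.

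**Figure D2:**
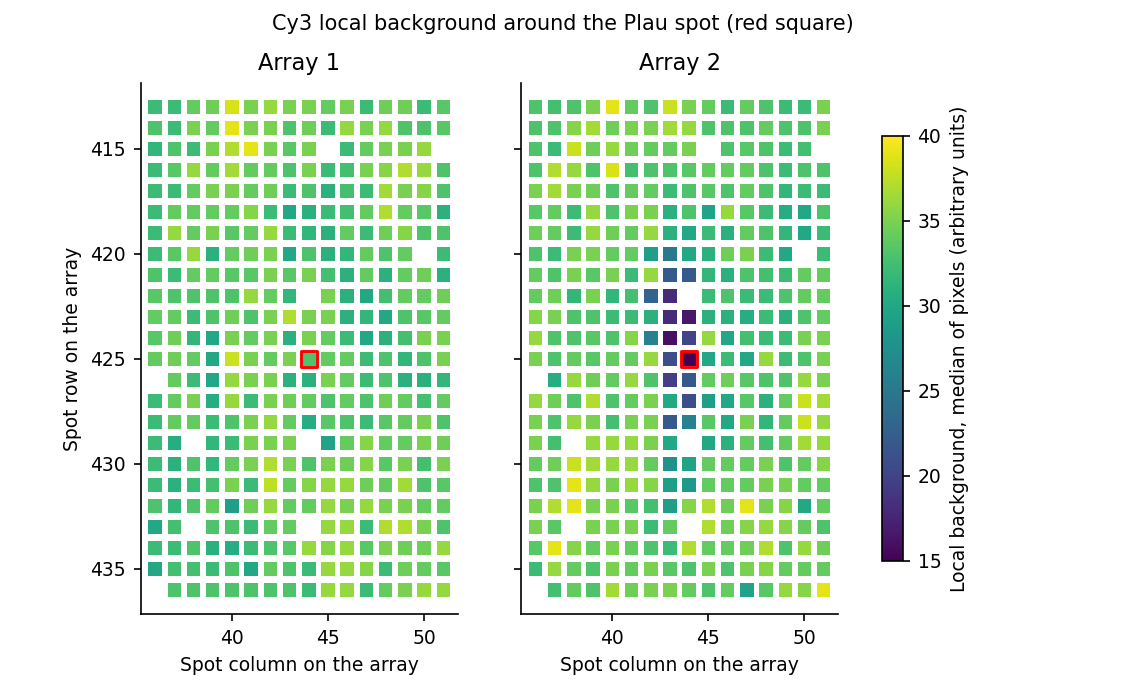
Local background of the Cy3 channel (median of pixels, arbitrary units) for spots around *Plau* on array 1 and array 2, plotted by spot row and column, with the *Plau* spot outlined in red. The background is even on array 1, and on array 2 it falls to 15 at the *Plau* spot within a cluster of dark spots in rows 421 to 428.

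In this dark area the raw Cy3 signal, which is the knockout channel of array 2, was lower than on array 1 at all 14 spots, with a median change of -2.18 on the log2 scale against 0.13 over all gene spots. The Cy5 signal changed by a median of -0.43 there, against 0.01 over all gene spots. At the *Plau* spot the raw Cy3 signal went from 1831 to 148 and the raw Cy5 signal from 686 to 379. Of the 13 other spots in the area, 9 had an array 2 ratio of -1 or less. Of the 8 among them with a raw Cy3 signal of at least 150 on array 1, a limit chosen after the values were seen, 7 had such a ratio, the exception was *Fam114a2* at 5.61, and 3 were well above background in all channels. One of these 3 was *Adipor2*, an adiponectin receptor gene, at -0.27 on array 1 and -5.40 on array 2. The software marked 1 of the 14 spots as unusual and did not mark *Plau*. The part of this area in the array 2 value of *Plau* was not tested. When spots of low local background were left out, a choice made after seeing the data, *Plau* had no array 2 value and 0 of the 5 remaining genes were counted as changed.

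Array 1 alone gives the *Plau* ratio in 1 dye orientation. On that array a ratio of -2 or less was found for 59 of the 18921 genes detected in both genotypes, and 55 of them were above 0 on array 2, with a median of 1.69 there over the 59 genes. The 4 genes that were below 0 on both arrays were *Cnnm2*, *Plau*, *Gm9853* and ENSMUST00000071374. For *Plau* the array 2 sign comes from its spot in the dark area, where 9 of the 13 other spots had a ratio of -1 or less. No agreement between the arrays can be read from that sign. The 59 genes were picked for their array 1 ratio, and over all genes the ratios of the arrays were negatively correlated. No cause of the *Plau* ratio on array 1 was tested.

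**Figure D3:**
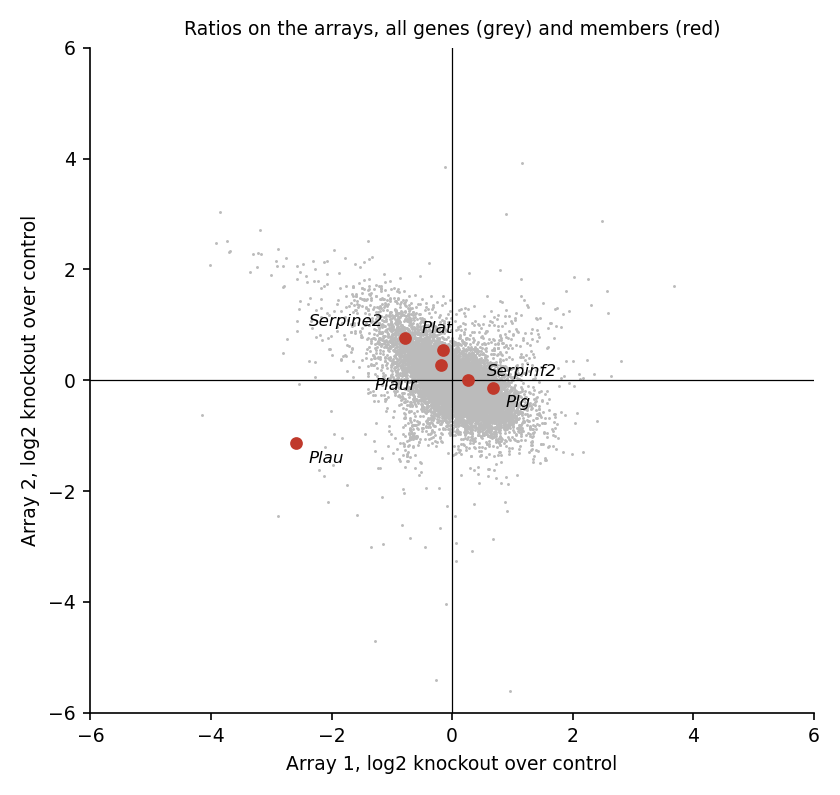
Log2 ratio of knockout over control on array 1 (horizontal axis) and array 2 (vertical axis) for 19708 genes in grey and the 6 genes of the plasminogen system with a ratio in red; 1 gene lies beyond the plotted range. *Plau* sits at the lower left at -2.58 and -1.13, and the other 5 genes lie within the main cloud, which runs from upper left to lower right.

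*Plat*, the tissue plasminogen activator, is known from the vessel wall and the glomerulus. Its signal on array 1 was 643 for the knockout and 717 for the control, and on array 2 it was 943 and 645. The ratio changed sign with the dyes, from -0.16 to 0.55, averaging 0.20 ± 0.50 (SD over 2 arrays). A difference between genotypes was smaller than the difference between arrays. *Plg*, the plasminogen gene, was measured near the limit of detection. On array 1 its signal was 24.9 for the knockout and 15.5 for the control, and on array 2 it was 18.7 and 20.7. The ratios of 0.68 and -0.15 again differed in sign, and their mean was 0.27 ± 0.59.

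*Plaur* encodes the urokinase receptor, a protein anchored to the outer face of the cell membrane. Its signal on array 1 was 269 for the knockout and 307 for the control, and on array 2 it was 296 and 245. The 4 signals lay close together and the genotypes overlapped. The ratios were -0.19 and 0.27, with a mean of 0.04 ± 0.32.

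The 3 serpins behaved differently across the channels. *Serpine2*, or protease nexin-1, inhibits thrombin and urokinase. Its signal on array 1 was 57.6 for the knockout and 98.9 for the control, and on array 2 it was 99.0 and 58.6. The gene thus followed the dye, being higher in Cy3 on each array whichever genotype was labelled with it. The ratios of -0.78 and 0.76 cancelled to a mean of -0.01 ± 1.09. *Serpinf2* encodes alpha-2-antiplasmin, the main inhibitor of plasmin in blood. Array 1 gave a signal of 40094 for the knockout and 33417 for the control, and array 2 gave 33756 and 33598. No channel was saturated. It was the only one of the 6 genes besides *Plau* with the same sign on both arrays, at 0.26 and 0.01, and its mean of 0.13 ± 0.18 was below its SD. *Serpinb2*, plasminogen activator inhibitor-2, was not well above background in any channel. Its signals of 2.14 and 3.32 on array 1 and 5.13 and 1.89 on array 2, knockout first, allow no ratio.

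Of the 6 genes with a ratio, 1 was counted as changed, which is *Plau*, and 2 had the same sign on both arrays. Over all 19708 genes, 27.7% had the same sign on both arrays. The median of the 6 mean ratios was 0.09 and that of all genes was -0.01, and without *Plau* the means ranged from -0.01 to 0.27.

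The rest of the pathway was described with 8 lists of 61 genes, the 7 genes included, of which 60 were on the arrays and 53 had a ratio. Of the 47 genes with a ratio outside the 7, 1 was counted as higher and 0 as lower in the knockout, beside 0.599% of all genes in either direction. With 12 higher and 11 lower on both arrays, 23 of the 47 had the same sign, beside 27.7% of all genes, and the median of their mean ratios was -0.03. The gene counted as higher was *Fgb*, the fibrinogen beta chain, a substrate of plasmin. Its signal on array 1 was 196 for the knockout and 88.4 for the control, and on array 2 it was 155 and 68.8. Both knockout signals were above both control signals, with ratios of 1.15 and 1.17. *Fgg*, the gamma chain, had ratios of 0.76 and 1.18 with a mean of 0.97, just under the size that was counted. *Fga*, the alpha chain, had ratios of 0.02 and -0.43.

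**Figure D4:**
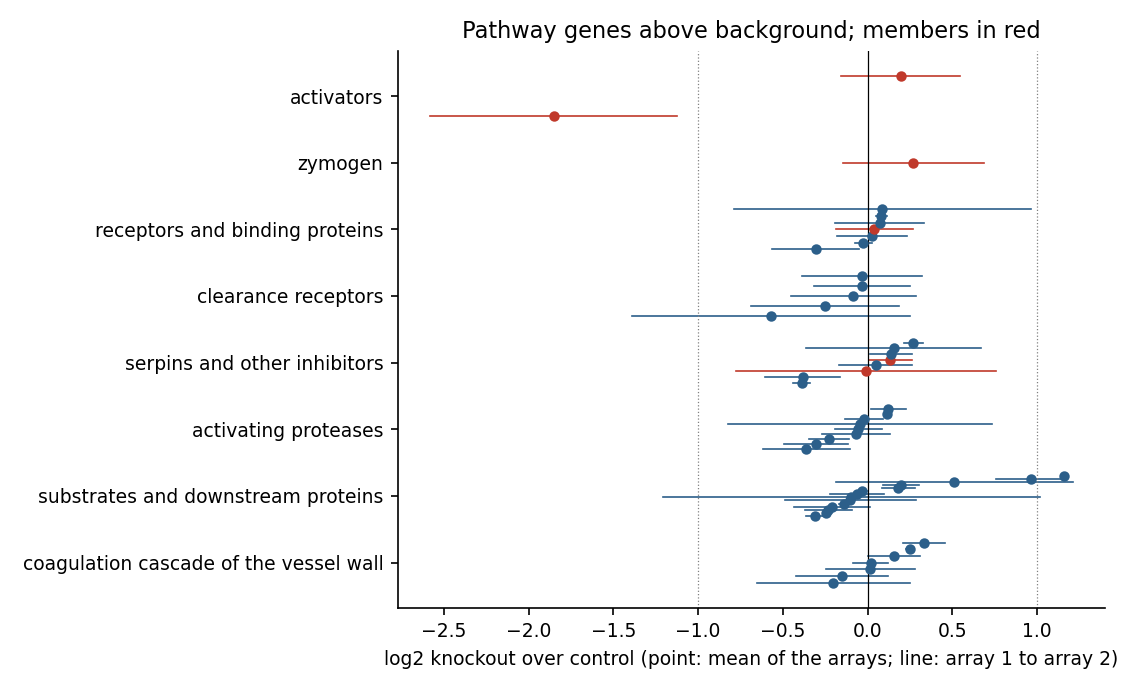
Log2 ratio of knockout over control for the 53 pathway genes above background, by list, with the mean of the arrays as a point and a line from array 1 to array 2. Red marks the genes described one by one, blue the others, and the dotted lines the size of 1. By the mean of the arrays, *Plau* is the only gene below -1 and *Fgb* the only one above 1. Lines of some other genes cross the dotted lines on a single array.

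Apart from *Plau* among the activators and *Fgb* among the substrates and downstream proteins, no gene of the lists was counted as changed. Among 7 receptors and binding proteins, the mean ratio ran from -0.30 for *Vtn* (vitronectin, which binds the urokinase receptor and plasminogen activator inhibitor-1) to 0.09 for *S100a10*, a partner of annexin A2. The *Vtn* probe was dim and not well above background in both genotypes, and its ratios were -0.05 and -0.56. Those of *S100a10* were of opposite sign, at 0.97 and -0.79. Among 5 clearance receptors the mean ratio ran from -0.57 for *Mrc2*, which is known to associate with the urokinase receptor, to -0.03 for *Vldlr*. The *Mrc2* ratios were of opposite sign, at -1.39 and 0.25. Among 8 inhibitors with a ratio it ran from -0.39 for *Cpb2*, a carboxypeptidase that protects fibrin from plasmin, to 0.27 for the protease inhibitor *Pzp*. Both kept their sign on the arrays, with ratios of -0.34 and -0.44 for *Cpb2* and of 0.22 and 0.33 for *Pzp*. *Cpb2* and *Pzp* had small SDs over the arrays, of 0.07 and 0.08.

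Among 9 activating proteases the mean ratio ran from -0.36 for *Klk1*, tissue kallikrein, to 0.12 for *Habp2*, a plasma protease that can activate urokinase. Among 14 substrates and downstream proteins it ran from -0.31 for *Scnn1g*, the sodium channel subunit that plasmin can cut, to the 1.16 of *Fgb*. The *Scnn1g* probe was dim, at 25.5 for the knockout and 32.8 for the control on array 1, and its ratios were -0.36 and -0.26. Among 7 genes of coagulation at the vessel wall it ran from -0.20 for *F2r*, a thrombin receptor, to 0.33 for *Tfpi*, the tissue factor pathway inhibitor, and the *F2r* ratios of 0.25 and -0.65 differed in sign.

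The 5 genes nearest to *Plau* in the plane of the array ratios, among genes well above background in both genotypes, were *Gm9853* at a distance of 0.61, *Tatdn2* at 0.65, *Pvalb* at 0.72, *Cish* at 0.77 and ENSMUST00000071374 at 1.06. *Pvalb*, the calcium-binding protein parvalbumin of the distal convoluted tubule, had ratios of -1.98 and -1.52. *Cish*, a feedback inhibitor of cytokine signalling, had ratios of -1.82 and -1.04. Likeness here rests on 2 arrays. The array 2 ratio of *Plau* comes from the spot in the dark area, and all these distances depend on that ratio.

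Kidney markers were above background, with ratios for 8 of 8 proximal tubule genes, 5 of 5 each of thick ascending limb, distal convoluted tubule and podocyte genes, and 6 of 6 collecting duct genes. The median mean ratio was 0.09 for the proximal tubule, -0.07 for the thick ascending limb, -0.15 for the collecting duct and -0.32 for podocytes. Endothelial genes, the cells where *Plat* is known, had a median of -0.08, and macrophage genes, a known site of *Plaur*, one of -0.01. Hepatocyte genes, with 5 of 7 above background, had a median of 0.05. Of 5 markers of the distal convoluted tubule, 3 were counted as lower (*Pvalb*, *Trpm6* and *Calb1*), beside 0.284% of all genes, and the median was -1.01. The other two changed sign with the dyes, with ratios of -0.78 and 0.19 for *Slc12a3*, the sodium chloride cotransporter that defines this segment, and of 0.16 and -0.46 for *Egf*. The summed signal of the 5 markers was 39334 and 30249 in the knockout against 42809 and 42496 in the control, of which *Egf* alone made 34179 and 24663 against 30676 and 33841. Podocyte markers were lower on both arrays for 4 of 5 genes, beside 27.7% of all genes with the same sign in either direction. The remaining marker, *Podxl*, had ratios of opposite sign, at -1.44 and 1.21. Urothelial markers were higher on both arrays for 5 of 5 genes, beside the same 27.7% of all genes, with a median of 0.62. Their summed signals were 2447 and 2100 in the knockout against 1762 and 1409 in the control. *Upk1a* alone made 1453 and 1129 of these in the knockout against 1093 and 789 in the control. The part of these shifts in the *Plau* and *Fgb* values was not tested, and in whole kidney fewer cells of a type and less RNA per cell cannot be told apart. The median was 0.25 for male-biased and -0.43 for female-biased kidney genes and 0.12 for Y-linked genes and *Xist*, 3 of 5 of which were above background. Both sex-biased lists held means of either sign. The female-biased means ran from -0.98 for *Slc7a12* to 0.58 for *Acsm3*, and the male-biased means from -0.10 for *Kap* to 0.45 for *Slco1a1*. The Y-linked gene *Ddx3y* had signals of 1534 and 900 in the knockout and 1097 and 1337 in the control. *Xist*, which is expressed from the inactive X chromosome of females, did not pass the background limit set above. Its signals were 5.42 and 2.96 in the knockout and 3.07 and 2.56 in the control.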

How the data were processed

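Total RNA from kidneys of both genotypes was measured on 2 two-colour arrays. The files deposited by the authors are scanner tables from Agilent Feature Extraction, version 10.7.3.1 in the file headers and 10.5.1.1 in the submitters' processing notes. The deposited intensity values are given raw and as processed signals, corrected by the software for background and dye within each array. The authors also deposited log10 ratios of the arrays, in the scanner files and in a series matrix, and these were used as alternatives. Columns not tied to a sample numbered 0. Processed signals were taken to log2 and turned to knockout over control by the dye labels. Control spots and marked spots were left out, spots of a probe were averaged, and the probe with the highest mean signal stood for a gene name. Precision is limited by having 2 arrays. Probes printed at least 9 times had a median SD of the ratio of 0.05 over their spots on each array. The 7 genes and all gene lists were chosen with earlier results of these data known. Named genes were the 7 genes, *Cnnm2*, the genes of each list counted as changed or with the highest or lowest mean, and the 5 genes nearest to *Plau*; *Fgg*, *Fga*, *Adipor2*, *Fam114a2* and single markers were named after their values were seen. Alternatives used limma 3.58.1 in R 4.3.3. The calculation was tested on simulated data, with Python, numpy, pandas and scipy.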

Additional observations from a re-analysis of the deposited data

How the results depend on the processing

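Leaving out either array gave *Plau* ratios of -2.58 and -1.13, and under normexp with an offset of 50 and loess, the smallest of the other values, the ratio was -1.25. *Plau* was counted as changed under every alternative except 3: the methods' paired t-test over the arrays (p under 0.1 and mean fold over 2), which called 0 of the 6 genes, the same test after Benjamini-Hochberg adjustment, which called 0, and leaving out spots of low local background, which left 0 of 5 counted and 1 of 5 with the same sign on both arrays. For the other 5 genes, the alternatives that kept both arrays gave mean ratios from -0.05 to 0.305, while *Plat*, *Plaur*, *Plg* and *Serpine2* had opposite signs on the arrays.

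The count over all genes was 118, and it depended on the processing. It was 15 with normexp and loess, 24 with no background correction and loess, 411 with no limit on dim probes, 64 with probes well above background in both genotypes, 48 with at least 2-fold on each array, 36 by the methods' t-test and 0 after Benjamini-Hochberg adjustment. With 1 array alone it was 1458 to 1731. The cause was not tested beyond the change in genes or arrays that each alternative makes. Both genotypes lie on each array, so every ratio is paired within its array. The same sign on both arrays is not defined with 1 array alone.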
